A study of Komagataella phaffii GS115 with 9 samples.

Results

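The genes described here were lower in the robust mutant of *Pichia pastoris* than in its WT parent at 28 °C, and higher again when the same mutant was induced at 37 °C. They were chosen from the values themselves, with differences of group means of log2(FPKM + 1). A gene entered when the strain difference (G14_28 minus Parent_28) was at most -0.7, the temperature difference (G14_37 minus G14_28) was at least 0.7, and at least 1 group had a mean of 5 FPKM or more. The unit of the table was inferred to be FPKM, in which a read number is set relative to the length of its gene and the size of its library. Of the 5557 features in the table, 5230 chromosomal locus tags could be taken, and 71 were. The rule leaves out 3 stretches of adjacent tag numbers on chromosomes 3 and 4, where 6 of 144 tags would have met the limits.

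RNA was sequenced from cell pellets after 60 h of flask fermentation in BMGY/BMMY medium, with 3 libraries in each of 3 groups. By the paper's methods, BMGY holds glycerol and BMMY holds methanol, which served as inducer and only carbon source. The paper describes its RNA-seq cultures as methanol-induced. The organism of the series is given as *Komagataella phaffii* GS115, a synonym of *P. pastoris*. G14_37 and G14_28 are the robust mutant, labelled as cross-tolerant to oxidative and thermal stress, with an induction temperature of 37 °C and 28 °C. Parent_28 is the parent strain at 28 °C. The mutant is a single strain obtained by adaptive laboratory evolution, and both strains carry a lipase gene, *RCL*, under the methanol-inducible *AOX1* promoter. The study describes the libraries of a group as biological replicates. No library is of parent cells at 37 °C, so the temperature difference belongs to the mutant alone. Strain and temperature cannot be told apart in G14_37 against Parent_28.

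*P. pastoris* is a methylotrophic yeast that oxidizes methanol in its peroxisomes, where hydrogen peroxide is formed, and 37 °C is above the temperature at which this yeast is usually induced. Adaptive laboratory evolution keeps cells under a stress for many generations and selects variants that grow better. Such variants can carry changes in expression that are visible without the stress, and a later exposure can move the same genes again. Which of them go back towards the parental level and which do not is the question that the 3 groups address for these genes. The table gives locus tags without gene names. These tags follow the annotation of another strain, and none of them is in the available table of 5040 genes of strain GS115, which uses its own tags. The missing match says nothing on whether GS115 has these genes, and the functions of the 71 genes are not known here.

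Whole reads could be recovered from the values, and each library held 13131111 to 15945465 reads. The library sizes used in the deposited values were 1.152 to 1.229 times the recovered reads in G14_37, 0.9 to 0.925 times in G14_28 and 0.874 to 0.879 times in Parent_28. The values at 37 °C were thus scaled down against the summed reads, and those at 28 °C were scaled up. This scaling bears on every difference that involves G14_37, and values under both scalings are given where it matters.

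In G14_28 the 71 genes had a median strain difference of -0.855, with quartiles of -1.174 and -0.775, whereas all tested features had a median of -0.0375. The temperature difference had a median of 1.189, with quartiles of 0.938 and 1.67, and the median of all tested features was -0.0221. These values follow from the rule and were not tested. In 69 of the 71 genes the 3 G14_28 values lay below all 3 Parent_28 values, and 39.1% of the features tested did so. In 71 of 71 the 3 G14_37 values lay above all 3 G14_28 values, which 35.1% of the features tested did. Both counts use the contrasts of the rule. The decrease was larger than 1 on the log2 scale in 28 genes, while the later increase was larger than 1 in 48 genes and larger than 2 in 13.

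**Figure D1:**
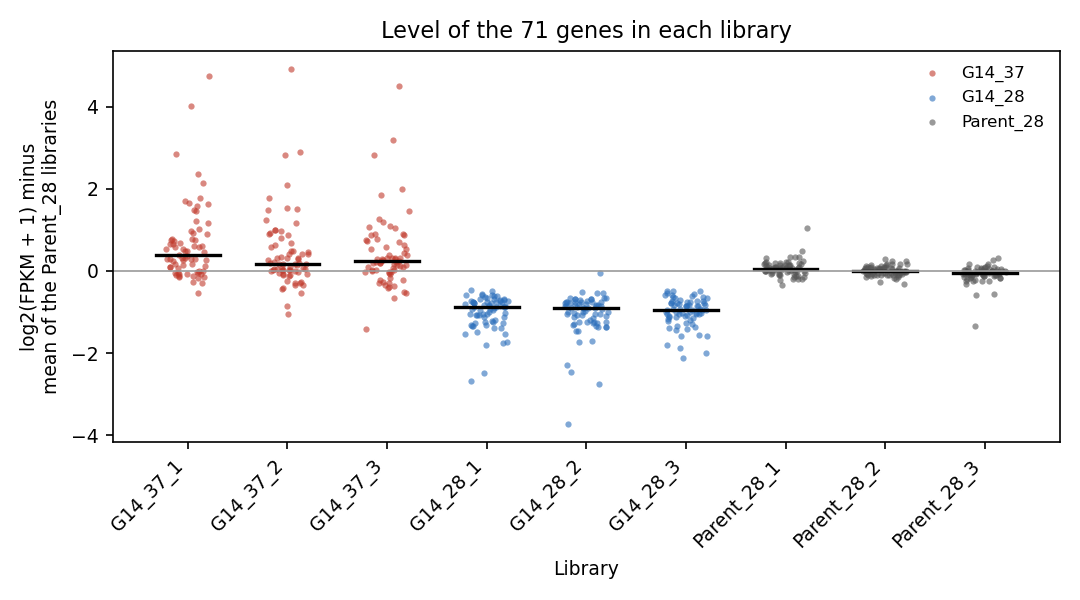
Each point is 1 of the 71 genes, plotted as log2(FPKM + 1) in a library minus its mean over the Parent_28 libraries, and black bars are medians over the genes. All points of the G14_28 libraries lie below 0, where the rule fixed only their means, and those of the G14_37 libraries spread from below 0 to almost 5.

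**Figure D2:**
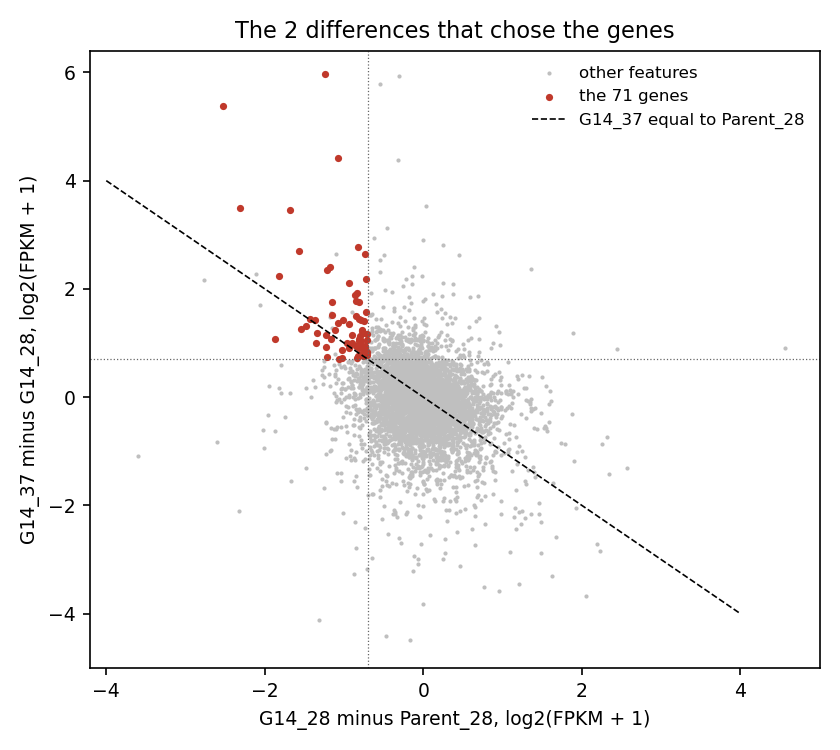
Horizontal axis, G14_28 minus Parent_28, and vertical axis, G14_37 minus G14_28, both in log2(FPKM + 1), for all features with reads (grey) and the 71 genes (red). Dotted lines mark the limits of -0.7 and 0.7, and genes above the dashed line were higher in G14_37 than in Parent_28.

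The genes nearest the limits show how sharply the set was bounded. Just inside, the strain differences were -0.707, -0.708 and -0.715, and just outside they were -0.697, -0.695 and -0.682. The temperature differences nearest the limit were 0.709, 0.719 and 0.722 inside and 0.693, 0.689 and 0.686 outside. By level, the lowest gene inside reached 5.56 FPKM in its highest group, and the nearest outside reached 4.48 FPKM. In 37 genes the strain difference lay within 0.2 of the limit, so much of the set sits close to its edge.

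Because all 3 libraries of each group entered the rule, the same rule was also applied to only 2 replicate numbers, and the third was read as data that the choice had not used. With replicate 1 held out, 69 genes were chosen, 57 of them among the 71. In the held-out libraries they had a median strain difference of -0.843 and a median temperature difference of 1.238, and 68 of the 69 had both signs, against 33.2% of all tags that could be taken. With replicate 2 held out, 86 genes were chosen, with medians of -0.828 and 0.940, and both signs were found in 79, against 30.2% of all tags. With replicate 3 held out, 83 genes were chosen, with medians of -0.783 and 1.038, and again 79 had both signs, against 30.6% of all tags. The 2 differences share the G14_28 library. The pattern was therefore found in most chosen genes in libraries that did not choose them. Both limits of 0.7 were passed by 59.4%, 52.3% and 55.4% of the chosen genes in the held-out libraries, against 2.03%, 1.61% and 1.70% of all tags that could be taken. Membership of a single gene was less stable than the direction, since between 57 and 63 of the 71 were chosen from any 2 replicate numbers.

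How far the genes returned to the level of the parent was read from G14_37 against Parent_28, tested with limma over 5451 features. This remaining difference is the sum of the 2 differences of the rule and is thus not independent of it. Its median over the 71 genes was 0.256, and that over all tested features was -0.0332. With values scaled to the summed reads, the medians were 0.686 for the 71 genes and 0.405 for all tested features. Relative to all features the genes lay 0.289 higher with the deposited scaling and 0.281 higher with the other. The scaling multiplies all values of a library by the same factor, so these 2 figures had to be close. They say nothing about which scaling is right.

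The difference was above 0 in 54 genes and below 0 in 17 with the deposited values, and above 0 in 69 and below 0 in 2 after scaling to the summed reads. Between the scalings the median over all tested features moved from -0.033 to 0.405, so these counts shifted along with the whole transcriptome. Shares of all features above and below 0 were not counted. With limma, 34 of the 71 genes were higher in G14_37 than in Parent_28 at an adjusted p under 0.05, as were 33.1% of all features tested. Another 4 were lower, as were 39.1% of all features. Scaled to the summed reads, 62 of the genes were higher and 0 lower with limma, against 64.7% and 17.5% of all features tested. When the first G14_37 library was left out, 9 genes were lower in place of 4, and 2260 of all features tested were lower in place of 2134. In 36 genes the 3 G14_37 values lay above all 3 Parent_28 values, in 4 they lay below, and in 31 the groups overlapped. Among all features tested, 34.9% lay above and 40.9% below.

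With the deposited scaling, 53 of the 71 genes had a remaining difference smaller than 0.7 in size, as did 4123 of all 5451 features tested. A difference this small was thus not particular to these genes. Scaled to the summed reads, 38 of the 71 genes had one, and 33 exceeded Parent_28 by 0.7 or more. How many genes lay near the parental level therefore depended on the scaling. With the deposited values, in 17 genes G14_37 exceeded Parent_28 by 0.7 or more, and 1 gene had a remaining difference of -0.783. For 33 genes the test did not pass, which by itself does not show that the levels were alike. In 28 of those 33 the 95% interval of the remaining difference lay between -0.7 and 0.7, and over all 71 genes this held for 43. The counts of intervals and of differences of 0.7 or more were not made over all features.

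**Figure D3:**
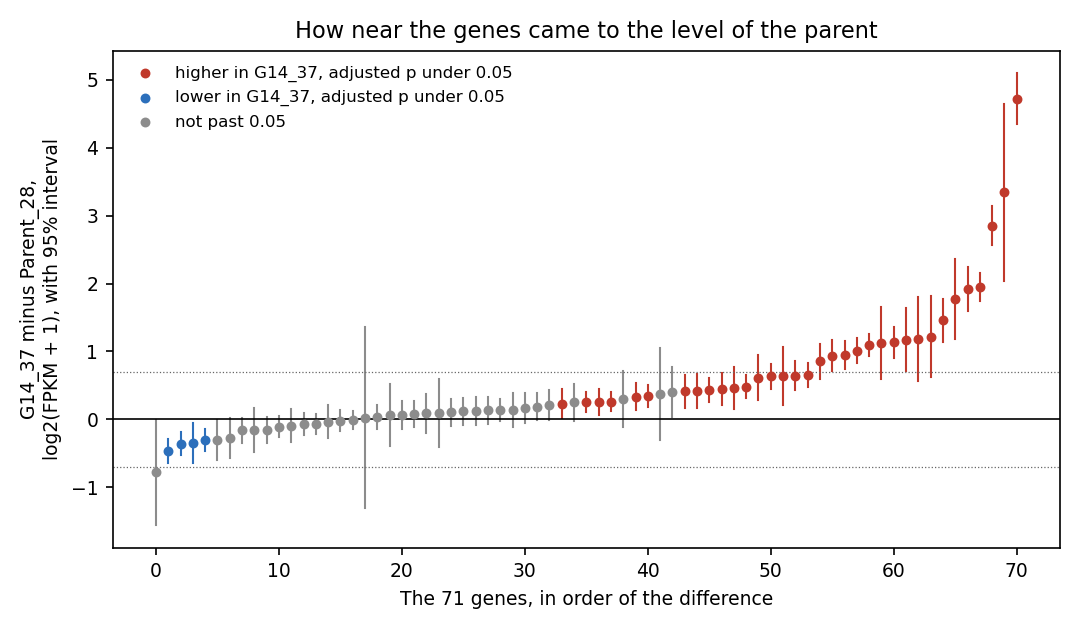
Each point is 1 of the 71 genes in order of the remaining difference, G14_37 minus Parent_28 in log2(FPKM + 1), with its 95% interval from limma. Red points are higher and blue points lower in G14_37 at an adjusted p under 0.05, grey points are neither, and dotted lines mark -0.7 and 0.7.

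Several abundant genes had levels in G14_37 close to those of the parent with the deposited scaling. The gene of the set with the highest mean in Parent_28 had 693.0, 642.2 and 735.7 FPKM in G14_37, 295.0, 278.4 and 256.3 FPKM in G14_28, and 830.5, 725.4 and 763.4 FPKM in Parent_28. Its G14_37 and Parent_28 values overlapped, and those of G14_28 were the lowest by a wide margin. The 95% interval of its remaining difference reached from -0.345 to 0.0189. The tag next to it on chromosome 3 was also taken, with 156.1 ± 10.8 FPKM in G14_37, 90.3 ± 2.43 FPKM in G14_28 and 158.6 ± 7.93 FPKM in Parent_28 (SD, n = 3 each). Here the remaining difference was -0.0241, with an interval from -0.179 to 0.131. Another abundant gene, of 609 bases on chromosome 3, had 389.0, 379.4 and 342.1 FPKM in G14_37, 159.4, 158.9 and 178.0 FPKM in G14_28, and 388.3, 405.6 and 370.1 FPKM in Parent_28. G14_37 and Parent_28 overlapped here too, and the interval of the remaining difference reached from -0.227 to 0.0894.

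The 4 genes that limma placed below the parent had remaining differences between -0.306 and -0.467. The clearest was a gene of 765 bases on chromosome 2, with 46.2, 49.5 and 50.4 FPKM in G14_37, 29.2, 27.8 and 28.6 FPKM in G14_28, and 71.7, 72.1 and 60.0 FPKM in Parent_28. All 3 groups were separate for this gene, with G14_37 between the others (adjusted p = 0.00086 for G14_37 against Parent_28, limma). None of the 71 genes was called with a remaining difference below -1, with limma or with limma-voom on recovered reads. Among all features tested, limma called 8.48% with a difference of that size. The rule works against such values in the 71 genes, as it asks for a temperature difference of at least 0.7. This contrast is therefore no result about the genes. Without the first G14_37 library 1 gene was called with a remaining difference below -1, and over all features tested 514 were, in place of 462.

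The 17 genes that exceeded the parent by 0.7 or more had a median level of 11.5 FPKM in Parent_28, whereas the 53 genes within 0.7 had a median of 37.9 FPKM. The limit of 5 FPKM has a part in this contrast, since 7 of the 71 genes reached it only in G14_37, and 5 of these are among the 17. The temperature differences of the 17 genes lay between 1.58 and 5.96, and high values follow from how these genes were set apart. In 14 genes the remaining difference was above 1 with an adjusted p under 0.05 from limma, as in 3.83% of all features tested. Scaled to the summed reads, this held for 22 genes and for 12.3% of all features.

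Genes with high values in G14_37 were among them as well. The second one below had a Parent_28 mean of 55.8 FPKM, under the median of 70.0 FPKM over all tags that could be taken. A gene of 828 bases on chromosome 2 had 541.6, 691.3 and 701.7 FPKM in G14_37, 122.6, 122.1 and 130.4 FPKM in G14_28, and 289.9, 295.5 and 288.5 FPKM in Parent_28. Its remaining difference was 1.13 (standard error 0.0991, adjusted p = 1.7e-05 from limma). A gene of 1413 bases on the same chromosome had 193.9, 239.6 and 224.7 FPKM in G14_37, 34.5, 28.0 and 30.9 FPKM in G14_28, and 60.6, 52.0 and 54.8 FPKM in Parent_28, with a remaining difference of 1.95 (standard error 0.0890). For both genes no value of one group reached into another, and the order was G14_37, Parent_28, G14_28.

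Locus tags, without their strain prefix, are given for only 4 of the genes. They are those with the lowest strain differences and, after them, those with the highest temperature differences. CHR1-0003, 1128 bases long and near the low end of the tag numbers of chromosome 1, had the lowest strain difference, -2.52. It had 87.7, 90.4 and 86.7 FPKM in G14_37, 0.929, 0.824 and 1.82 FPKM in G14_28, and 9.68, 10.5 and 14.4 FPKM in Parent_28. No groups overlapped, and G14_37 lay far above the parent rather than at its level. In summed reads, it had 49 in G14_28 against 472 in Parent_28, a ratio of 0.104 with a 95% counting interval (exact Clopper-Pearson, counting error only) of 0.0757 to 0.140. The G14_37 libraries held 5237 reads, 7.67 times the parental level per library size (6.98 to 8.45), and the remaining difference was 2.85 (standard error 0.126, adjusted p = 4.6e-07, limma).

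The neighbouring tag of CHR1-0003 was also taken, and it rose less at 37 °C, with a temperature difference of 2.24 against 5.38. It had 59.9, 50.3 and 43.4 FPKM in G14_37, 10.7, 6.04 and 15.2 FPKM in G14_28, and 39.6, 35.5 and 38.5 FPKM in Parent_28. Its remaining difference was 0.415, so both neighbours were lowered in the mutant and only CHR1-0003 went far beyond the parent.

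CHR4-0737, of 117 bases, had 40.0, 23.5 and 26.9 FPKM in G14_37, 4.14, 0 and 2.81 FPKM in G14_28, and 16.0, 14.75 and 7.87 FPKM in Parent_28. These values rest on few reads, with 187 in G14_37, 10 in G14_28 and 55 in Parent_28, and a ratio of 0.182 for G14_28 against Parent_28 (0.0826 to 0.360). The remaining difference was 1.19 (adjusted p = 0.0041, limma). That call was lost with all 3 groups in one limma fit, where the adjusted p was 0.059, the largest over the alternatives run, and the smallest was 0.00023.

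CHR1-1587, of 1611 bases, had the highest temperature difference, 5.96. It had 80.5, 91.3 and 67.4 FPKM in G14_37, 0.2002, 0.4718 and 0.2044 FPKM in G14_28, and 2.78, 1.84 and 1.61 FPKM in Parent_28. In the mutant at 28 °C the gene was close to its detection limit, with 17 reads in 3 libraries against 122 in Parent_28. With 6761 reads in G14_37, the ratio to Parent_28 was 38.3 (32.04 to 46.22), and the remaining difference was 4.72, the highest of the 71 genes (standard error 0.163, adjusted p = 1.4e-07, limma).

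CHR4-0398, again of 117 bases, had 40.0, 17.0 and 21.9 FPKM in G14_37, 0, 0 and 0.703 FPKM in G14_28, and 4.18, 2.11 and 0 FPKM in Parent_28. Its decrease rests on 1 read in G14_28 against 9 in Parent_28, and its groups at 28 °C overlapped. The counting interval of that ratio of 0.111 reached from 0.00254 to 0.802. With 164 reads in G14_37, the ratio to Parent_28 was 12.6 (6.48 to 28.05), and the gene reached the limit of 5 FPKM only in G14_37. The remaining difference was 3.35 (standard error 0.566, adjusted p = 0.00082, limma).

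**Figure D4:**
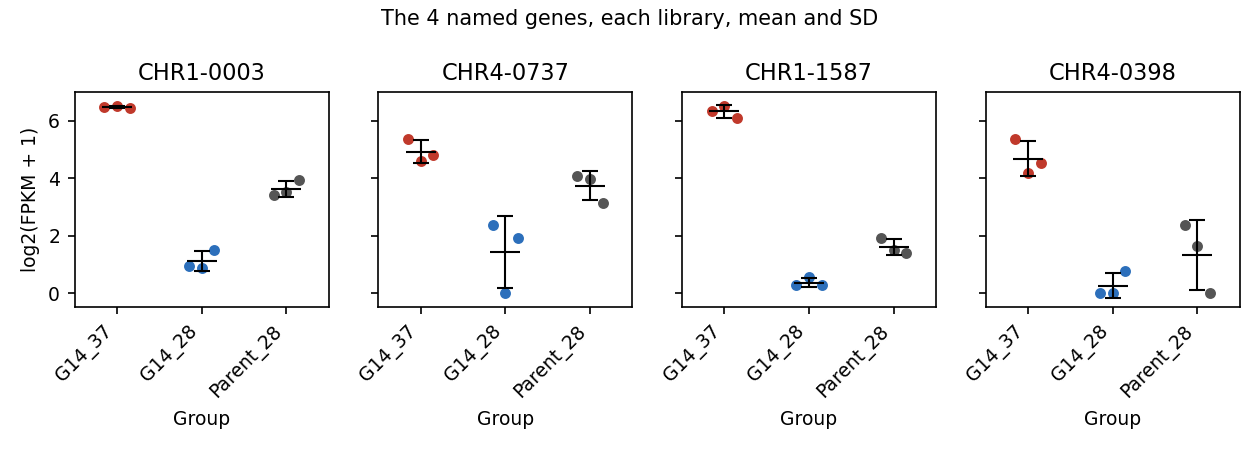
Values of the 4 named genes in each library as log2(FPKM + 1), with the mean and SD of 3 libraries. In all 4 panels G14_37 lies above Parent_28, and the G14_28 and Parent_28 values of CHR4-0398 overlap near 0.

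Short genes were frequent in the set, as they were among all genes lowered in the mutant. Of the 71 genes, 18.3% were shorter than 300 bases, against 5.12% of the tags that could be taken, and the median length was 777 bases against 1164. Of the 282 tags lowered by 0.7 or more in the mutant, 63 were under 300 bases, and only 13 of those 63 are in the set. Shortness was thus not particular to the genes that rose at 37 °C. Lengths were recovered from the values, and 70 of the 71 are multiples of 3. Genes that were lowered in the mutant and moved by less than 0.7 at 37 °C, 172 in all, had a median length of 559.5 bases. These 172 genes had a median level in Parent_28 of 111.4 FPKM, higher than the 32.6 FPKM of the 71 genes.

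A single length, 117 bases, occurred 6 times among the 71 genes, on all 4 chromosomes. The table holds 11 tags of this length that could be taken, so 54.5% of them were in the set, compared with 1.36% of all tags that could be taken. The length was singled out because it recurred among the 71 genes. Some of the 6 genes reached 5 FPKM only in G14_37, with Parent_28 means of 4.70, 4.91 and 2.09 FPKM. They could be taken only because they were high in G14_37, where the rule also asks for an increase. The share of 54.5% thus follows in part from these choices, and it was not tested. The other 5 tags of 117 bases had strain differences between -0.909 and 0.70 and temperature differences between -0.980 and 1.85, and thus did not share one pattern. Summed over the 6 genes, the reads numbered 586, 284 and 295 in the G14_37 libraries, 33, 28 and 26 in G14_28, and 128, 93 and 89 in Parent_28. These sums are separate between groups because of how the genes were chosen. Over all 11 tags of this length, the reads numbered 760, 368 and 378 in G14_37, 150, 106 and 93 in G14_28, and 285, 228 and 229 in Parent_28. Whether these tags are copies of one sequence that share reads was not tested, and their values are uncertain for that reason.

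The first G14_37 library stood above the others of its group for these short genes. Among the 13 genes under 300 bases it was the highest of the 3 in 12, by a median difference of 0.65 on the log2 scale over the mean of the other two, against 0.10 for the 58 longer genes. Over all tags under 300 bases that could be taken, it was the highest in 71.3% and the median was 0.264, and over all longer tags it was 0.006. For 1 gene of 117 bases, this library was far above the rest, with 17.69, 2.497 and 2.991 FPKM in G14_37, 2.07, 1.44 and 0.703 FPKM in G14_28, and 6.96, 4.92 and 4.29 FPKM in Parent_28. Its other G14_37 values lay just above those of G14_28 and below those of Parent_28. The part of this library in the results was measured by leaving it out. Then 66 genes met the rule, all of them among the 71, and the median remaining difference was 0.222. Of the 71 genes, 11 then had a called remaining difference above 1, in place of 14. Over all features tested, 211 then had one, in place of 209. Without the genes under 300 bases, 8 genes had one, a count not made over all features.

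**Figure D5:**
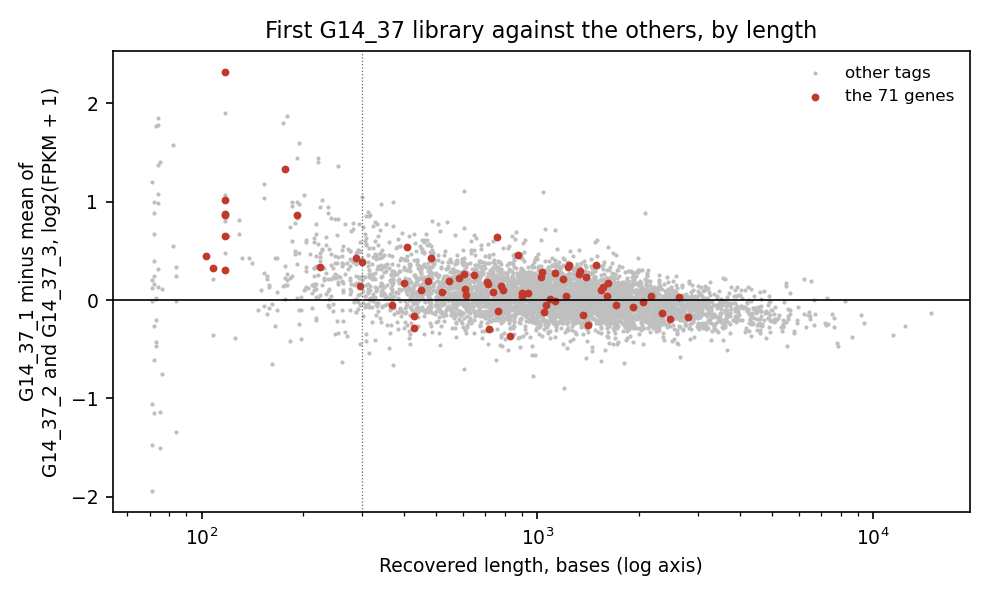
Horizontal axis, recovered length in bases on a log axis, and vertical axis, log2(FPKM + 1) of the first G14_37 library minus the mean of the other two, for the 71 genes (red) and other tags that could be taken (grey). Among the genes left of the dotted line at 300 bases, all 13 lie above 0.

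Replicate spread was larger for these genes. The median SD between the 3 libraries, in log2(FPKM + 1), was 0.155 in G14_37, 0.146 in G14_28 and 0.121 in Parent_28, compared with 0.091, 0.068 and 0.059 over all tags that could be taken. Spread was not compared at matched level. Deviations from the group means did not enter the rule as such, but a gene could pass it through a single raised G14_37 library. Deviations in G14_37 are therefore not free of the choice of genes. In the first G14_37 library 54 of the 71 genes lay above the mean of their group, with a median of 0.105, as did 52.8% of all tags. In the other libraries between 22 and 48 genes lay above it, with medians from -0.055 to 0.053, and 47.8% to 52.9% of all tags did.

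The set was a small part of the transcriptome. Its genes took 0.799% to 0.840% of the recovered reads in G14_37, 0.244% to 0.254% in G14_28 and 0.465% to 0.498% in Parent_28. Median levels over the genes were 39.9 FPKM in G14_37, 14.6 FPKM in G14_28 and 32.6 FPKM in Parent_28, compared with 68.0, 69.1 and 70.0 FPKM for all tags that could be taken. In G14_28, 14 of the genes had a mean below 5 FPKM. The depth was sufficient for most of them, as the median over the genes of the smallest read number in any library was 140, but 11 genes had a library with fewer than 10 reads and 3 had a library at 0.

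The genes were spread over the chromosomes, with 26 on chromosome 1, 17 on chromosome 2, 18 on chromosome 3 and 10 on chromosome 4. These are 1.58%, 1.25%, 1.49% and 0.991% of the tags that could be taken there. In the order of tag numbers only 3 pairs were direct neighbours. Apart from the pairs already described at the low end of chromosome 1 and on chromosome 3, the remaining pair was also on chromosome 3, with means of 5.56 and 21.8 FPKM in G14_37, 1.58 and 11.4 FPKM in G14_28, and 4.35 and 19.8 FPKM in Parent_28. Tag numbers were not checked against genome coordinates. The 71 genes were 25.2% of the 282 tags that were lowered by 0.7 or more in the mutant, and 39 others of the 282 fell by a further 0.7 or more at 37 °C. Of all 5230 tags that could be taken, 434 rose by 0.7 or more at 37 °C. Both differences use the G14_28 mean, with opposite signs, so a low G14_28 mean favours passing both limits. The share of 25.2% is therefore no measure of recovery by itself.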

How the data were processed

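RNA-seq values of 9 libraries were used, with groups and replicate numbers from the sample titles. The authors deposited a table of values with no named unit, taken here as FPKM from its form. The submitters' processing notes name CASAVA, HISAT2 2.0.5 and featureCounts 1.5.0-p3. The genome build, the annotation and the scaling between libraries are not given in the sources used here. Whole reads and feature lengths were worked out from the value steps, and 100.0% of the 49103 values above 0 came out whole within 0.001. The longest feature has 14853 bases, and 98.2% of lengths are multiples of 3, so most are coding lengths. Recovery and limma were tested on simulated data.

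The members, lists and tests were chosen with earlier results of these data known. G14_37 and Parent_28 were compared with limma 3.58.1 in R 4.3.3 (trend, no block) on log2(FPKM + 1), which understates changes of low genes, for features with a group mean of at least 1, with Benjamini-Hochberg adjustment over all of them. The deposited FPKM were tested as such, and the recovered reads entered only the limma-voom alternative. The count test named by the study was not run. Named genes were the 2 with the lowest strain difference and the 2 further ones with the highest temperature difference. The planned lists of pathway genes could not be applied without gene names, and no sequences were used. Other steps ran in Python 3.11.15 (scipy 1.17.1, pandas 2.3.3, numpy 2.4.6), and plots in matplotlib 3.10.9. No libraries were duplicates, as recovered reads of any replicates gave a chi-square of at least 3.85 per degree of freedom. Counting intervals cover counting error only. Alternatives were other pseudocounts, filters, scalings, limits and fits, limma-voom on recovered reads, and each library left out.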

Additional observations from a re-analysis of the deposited data

How the results depend on the processing

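The number of genes in the set, 71, depended most on its own limits, with 196 genes at limits of 0.5 and 23 at limits of 1. Scaled to summed reads, 112 genes met the rule, 59 of them among the 71. The median remaining difference then was 0.686, and 33 of the 71 genes, in place of 17, exceeded Parent_28 by 0.7 or more, a count of 17 to 19 with single libraries left out, chosen after seeing the data. With this scaling, 3525 features were called higher and 951 lower in G14_37 than in Parent_28, in place of 1805 and 2134, and 668 and 200, in place of 209 and 462, were called with a difference above 1 in size. Among the 71 genes, 62 were then called higher and 0 lower, and 22 were higher by more than 1. Other pseudocounts, levels and centring gave 66 to 88 genes. Leaving out single libraries gave 66 to 81 genes, and leaving out a replicate number of all groups gave 69 to 86. Over the fits without a library of G14_37 or Parent_28, the genes called higher numbered 32 to 35, those called lower 3 to 9, those higher by more than 1 11 to 15, and those lower by more than 1 0 to 1. The first G14_37 library gave the 9 and the 1. Over all features tested, the same fits called 1627 to 1882 higher and 1980 to 2260 lower. By more than 1, they called 202 to 213 higher and 430 to 514 lower. The 2260 and the 514 also came from the fit without the first G14_37 library. With only genes of 300 bases or more, chosen after seeing the data, 8 were higher by more than 1, a count not made over all features. For these changes, the cause was not tested.

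Same-numbered libraries of G14_37 and Parent_28 had deviations from their group means that correlated across genes at 0.124, -0.00867 and -0.0211, so the numbers were not taken as pairs. With a replicate block, 1793 features were called higher and 2131 lower, with 208 higher and 461 lower by more than 1. Of the 71 genes 34 were higher and 6 lower, with 14 higher by more than 1 and 0 lower by more than 1. CHR4-0737 lost its call with all 3 groups in one fit, where limma gave 1.19 with an adjusted p of 0.059, and the other named genes kept theirs under every alternative run. Depth limits the genes with few reads, 9 of which had at most 30 reads summed over G14_28.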
